A study of Mus musculus with 13 samples.

Results

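The mitosis and G2/M genes described here are 34 genes that act between the end of DNA replication and the separation of daughter cells: regulators of mitotic entry, mitotic kinases, checkpoint and exit genes, centromere and kinetochore genes, spindle genes, cytokinesis genes, and the chromosome proteins Mki67 and Top2a. They were taken by symbol and not by any measured value. All 34 of 34 symbols were found among the 25746 genes of the count table, and all 34 passed the low-count filter, which left 16051 genes for testing. The libraries were bulk RNA-seq of FACS-sorted keratinocytes of the interfollicular epidermis, the skin surface layer outside the follicles, of C57/BL6 mice.

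The 13 libraries fell into 4 groups. Il12rb2-deleted mice carried K14Cre/+ and Il12rb2fl/fl, so that Cre acts in keratinocytes, and gave 3 libraries after Aldara (a cream with 5% imiquimod, spread on the skin for 1 day) and 4 untreated libraries. Floxed control mice carried Il12rb2fl/fl alone and gave 3 Aldara and 3 untreated libraries. All groups thus share the floxed alleles; no vehicle cream, no K14Cre without floxed alleles, and no statement of which exons are floxed were among the material used here. Ages were not stated. The labels number replicates without saying that each came from its own animal, and the p-values therefore describe the scatter of these libraries alone, which may be technical.

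Cells enter mitosis when Cdk1 bound to cyclin B is freed of inhibitory phosphate by Cdc25 phosphatases. Chromosomes are then captured at kinetochores, pulled apart on the spindle once the checkpoint is satisfied, and the cell is divided by a contractile ring. Many of these genes are transcribed late in the cell cycle under MuvB complexes with B-Myb and Foxm1, and in healthy epidermis their transcripts come mainly from the few basal keratinocytes in division.

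The promoters of these genes carry recurring short motifs, and 6 are shown as examples, from genes lower after Aldara and from genes that did not pass the test. RefSeq promoter sequence (GRCm38.p6, from 250 bases before to 50 after the transcription start) was matched for 28 of the 34 symbols; Foxm1, Ccna2, Cdc25c, Aurkb, Tpx2 and Kif20a had no entry. The motifs searched on both strands were the cell cycle genes homology region (CHR) core TTTGAA, read as TTCAAA on the other strand, and the CCAAT box, read as ATTGG. Occurrences of the pair can share an end base and no more. Capitals mark either motif in the windows below, which run from 100 bases before the start to 10 after it, 5′ to 3′ on the gene's strand.
Prc1 (chr7:80294351-80294460, plus): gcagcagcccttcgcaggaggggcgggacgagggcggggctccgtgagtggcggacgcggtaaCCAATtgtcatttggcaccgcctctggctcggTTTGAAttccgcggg
Kif23 (chr9:61946790-61946899, minus): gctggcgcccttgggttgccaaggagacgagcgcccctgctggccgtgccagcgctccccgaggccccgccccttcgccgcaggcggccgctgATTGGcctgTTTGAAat
Cdc20 (chr4:118437334-118437443, minus): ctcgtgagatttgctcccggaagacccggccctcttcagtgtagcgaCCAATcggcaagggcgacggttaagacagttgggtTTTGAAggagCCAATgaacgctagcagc
Cdk1 (chr10:69352903-69353012, minus): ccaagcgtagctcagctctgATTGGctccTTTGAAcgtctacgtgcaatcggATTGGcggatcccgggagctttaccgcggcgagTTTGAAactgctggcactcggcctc
Ccnb2 (chr9:70421545-70421654, minus): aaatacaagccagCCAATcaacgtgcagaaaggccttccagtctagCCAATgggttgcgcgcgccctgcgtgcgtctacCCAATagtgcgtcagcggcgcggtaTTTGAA
Top2a (chr11:99024180-99024289, minus): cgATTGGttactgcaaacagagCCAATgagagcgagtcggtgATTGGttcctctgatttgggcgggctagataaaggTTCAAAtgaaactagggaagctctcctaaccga
The CHR core was present in 20 of the 28 mitotic promoters (71.4%), against 20.2% of all 27025 symbols with a promoter. A CCAAT box was present in 20 of 28 (71.4%), against 41.1% of all symbols, and both motifs were present in 17 of 28 (60.7%), against 8.97%. Among members called lower after Aldara over both genotypes, 11 of 13 with a promoter held a CHR core; among members not called, 9 of 15 did. A CCAAT box was found in 9 of those 13 and 11 of those 15. Prc1, Kif23 and Cdc20, which were lower after Aldara, and Cdk1, Ccnb2 and Top2a, which did not pass the test, all carry both motifs within the printed windows. These 6 were picked by no stated rule, so nothing about called and uncalled genes is read from them. Of the called genes not printed, Anln, Ndc80 and Kif2c lacked a CCAAT box, Ccnb1 lacked a CHR core and Nusap1 lacked both. The uncalled Mad2l1, Pttg1, Birc5 and Nuf2 also lacked both. Such matches describe letters only.

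Depth ran from 5830034 to 22232478 counts per library. The 34 genes together took between 0.202% of counts (95% exact binomial interval 0.199 to 0.204) and 0.256% (0.253 to 0.258) in the Aldara libraries, and between 0.237% (0.234 to 0.24) and 0.56% (0.557 to 0.563) in the untreated libraries; these intervals cover counting error only. Untreated libraries differed among themselves. The members' median deviation from each gene's mean over all libraries was 0.62, 0, 0.35 and 0.81 log2 units in Il12rb2-deleted untreated replicates 1 to 4 and -0.04, -0.16 and 1.05 in floxed control untreated replicates 1 to 3, while it lay between -0.62 and -0.12 in the 6 Aldara libraries. Untreated libraries also differed in the share of counts in the predicted gene Gm10800, which was 0.000543%, 0.00127% and 0.0065% in Il12rb2-deleted untreated replicates 3 and 4 and floxed control untreated replicate 3, and 5.21%, 10.3% and 14.2% in Il12rb2-deleted untreated replicates 1 and 2 and floxed control untreated replicate 2. Il12rb2-deleted untreated replicates 3 and 4 and floxed control untreated replicate 3 also had the fewest genes with any count, at 14320, 14620 and 15896. The other libraries had 17231 to 22430. The part of Gm10800, or of the number of genes detected, in the levels below was not tested. Levels are given as CPM, counts scaled to library size after TMM adjustment. The floxed gene Il12rb2 had 0, 1.07 and 1.64 CPM in Il12rb2-deleted Aldara libraries, against 22.7, 8.52, 25.6 and 19 CPM in their untreated counterparts. Floxed control cells had 1.98, 8.14 and 2.68 CPM after Aldara, against 17.1, 78.8 and 52.7 CPM untreated, so the untreated genotypes overlapped, and no deletion difference passed the test (edgeR adjusted p of 1 untreated and 0.982 after Aldara).

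**Figure D1:**
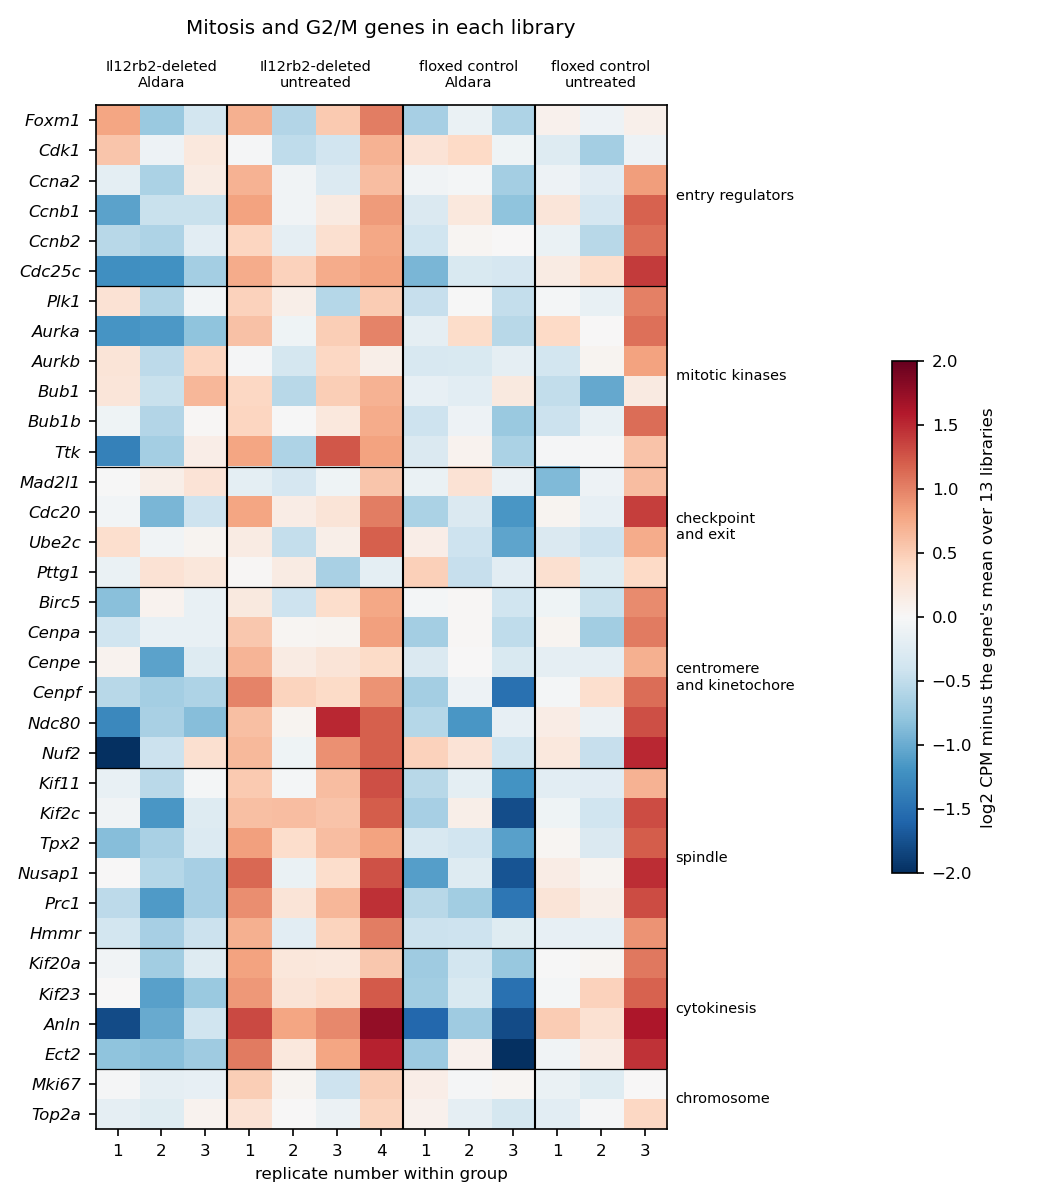
Each row is a mitosis or G2/M gene and each column a library, coloured by log2 CPM minus the gene's mean over 13 libraries, with groups separated by vertical lines and roles by horizontal lines. Cytokinesis and spindle rows are mostly blue in the 6 Aldara columns, the Mki67 and Top2a rows vary little, and Il12rb2-deleted untreated replicate 4 and floxed control untreated replicate 3 are the darkest red columns.

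Averaged over both genotypes, the spindle and cytokinesis genes were lower after 1 day of Aldara, while Mki67, Top2a, Cdk1 and Mad2l1 did not pass the test. Called and uncalled members were not cleanly split by size. Nuf2 (log2 fold change -0.9) and Ttk (-0.84) did not pass, while Kif11 (-0.83) did. In this average of the 2 Aldara effects, called here over both genotypes, 16 of the 34 genes were called lower and 0 higher at an adjusted p under 0.05 (edgeR's quasi-likelihood F test, adjusted over all 16051 genes), where 11.9% of all genes tested were called lower, 13% higher and 24.9% in either direction. The 16 were all 6 spindle genes, all 4 cytokinesis genes, Ccnb1, Cdc25c, Aurka, Cdc20, Cenpf and Ndc80. The members' median log2 fold change was -0.83, against -0.15 over all genes tested, and 30 of 34 values were negative, against 9162 of all 16051. In 10 of 34 every Aldara library lay below every untreated library of its genotype in both genotypes, against 7.14% of all genes, and in 0 the reverse held, against 7.96%. These are levels in bulk RNA: fewer cells in division and less of these transcripts per cell cannot be told apart.

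Within Il12rb2-deleted cells 11 of 34 genes were called lower and 0 higher, where 7.69% of all genes were called lower, 7.81% higher and 15.5% in either direction. The median over the 34 was -0.87, against -0.09 over all genes. Aldara and untreated values did not overlap, with Aldara lower, in 18 of 34, against 14.8% of all genes. Within floxed control cells 7 of 34 were called lower and 0 higher, where 2.9% of all genes were called lower, 4.15% higher and 7.05% in either direction. An unadjusted p under 0.05 was reached by 12 of 34 members and by 21.3% of all genes. The median over the 34 was -0.66, against -0.13 over all genes. Without floxed control untreated replicate 3 it was -0.23, against -0.22 over all genes, so in that omission the members lay with the rest. Values did not overlap, with Aldara lower, in 12 of 34, against 14.7% of all genes, and with Aldara higher in 1, Cdk1, against 13.1%. The 2 Aldara effects compare different libraries within 1 fit over all 13, which shares the scaling, the filter and the estimate of scatter. Both were negative in 28 genes, both positive in 2 and opposite in 4. Anln, Prc1, Cdc25c, Cenpf and Kif23 were called in both, which are 45.5% of the 11 calls in Il12rb2-deleted cells and 71.4% of the 7 in floxed control cells. Matching shares over all genes, for signs or for shared calls, were not computed, so no result is read from this agreement.

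These counts leaned on single libraries to different degrees. For the 2 genotypes together, the count stayed between 14 and 18 with each library left out in turn, and 14 of the 16 genes kept their call each time. The exceptions were Kif11 (adjusted p = 0.064 without floxed control untreated replicate 3 and 0.0568 without Il12rb2-deleted Aldara replicate 2) and Kif2c (0.0736 and 0.0546 without the same libraries). In Il12rb2-deleted cells, where 15.5% of all genes were called in either direction, the count was 7 without untreated replicate 1 (10.4% of all genes called), untreated replicate 4 (13.1%) or Aldara replicate 1 (9.72%), and 5 without Aldara replicate 2 (9.62%). Cdc25c, Aurka, Ndc80, Prc1 and Anln kept their call in all 13 omissions. In floxed control cells, where 7.05% of all genes were called, many omissions lowered the calls among all genes too. The count was 1 without untreated replicate 3 (1.66% of all genes called), Aldara replicate 1 (2.43%) or Aldara replicate 3 (6.17%). It was 2 without untreated replicate 2 (1.29%), Il12rb2-deleted untreated replicate 3 (5.95%) or Il12rb2-deleted Aldara replicate 2 (5.04%). It was 3 without Aldara replicate 2 (3.54%), Il12rb2-deleted untreated replicate 1 (6.24%) or Il12rb2-deleted Aldara replicate 3 (5.19%). Anln alone kept its floxed control call in all 13. Without the 3 untreated libraries that held under 0.01% of counts in Gm10800, a set chosen after seeing the data whose members' median deviations are the 0.35, 0.81 and 1.05 given above, 7 genes were lower and 1, Cdk1, higher over both genotypes, 4 were lower in Il12rb2-deleted cells and 0 in floxed control cells, where 18.2%, 8.6% and 1.78% of all genes were called. The members' median was then -0.3 over both genotypes, with all genes at -0.141, and -0.12 in floxed control cells, with all genes at -0.099. Without the 3 libraries over 5% in Gm10800, the counts were 19, 10 and 2, where 16.5%, 9.24% and 1.7% of all genes were called.

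**Figure D2:**
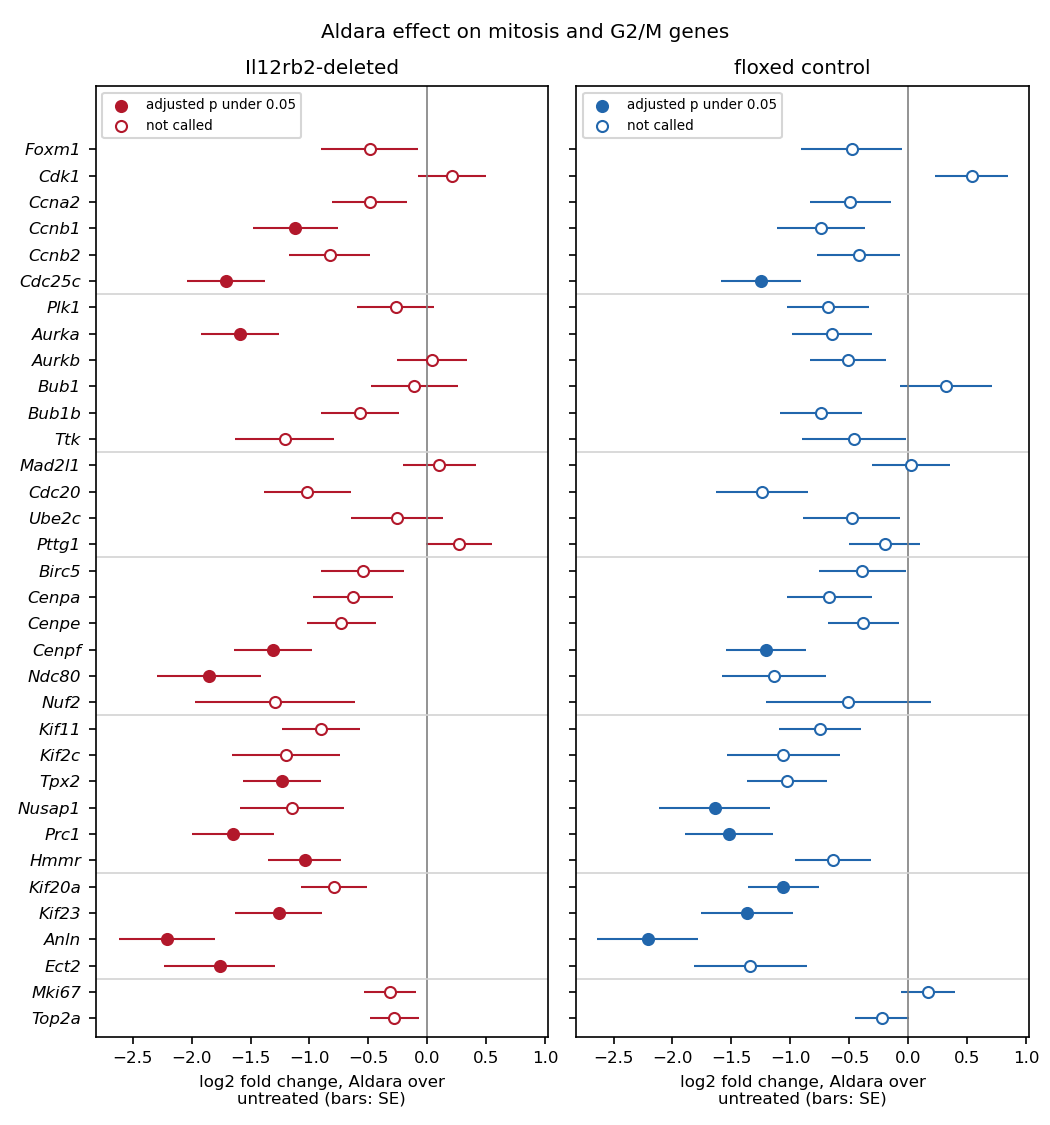
Points give the log2 fold change of each mitosis or G2/M gene, Aldara over untreated, with bars of 1 SE, in Il12rb2-deleted cells (left) and floxed control cells (right); filled points passed an adjusted p of 0.05. Anln lies furthest left in both panels, at -2.21, while Cdk1 and Mad2l1 lie at or right of 0 in both.

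The cytokinesis genes showed the largest differences of any role, with a median of -1.43 over both genotypes, and all 4 of 4 were lower. Anln encodes anillin, the scaffold of the contractile ring. It had 33.9, 58.3 and 88.4 CPM in Il12rb2-deleted Aldara libraries, against 293, 202, 228 and 394 CPM in Il12rb2-deleted untreated libraries. Floxed control cells showed 39.5, 71.8 and 34 CPM after Aldara, against 166, 145 and 357 CPM untreated. Every Aldara library lay below every untreated library, whichever genotypes are compared. The log2 fold change was -2.21 in Il12rb2-deleted cells (SE 0.41, edgeR adjusted p = 0.00266) and -2.21 in floxed control cells (SE 0.43, adjusted p = 0.00965), a level 4.62-fold lower over both. Kif23, a kinesin of the centralspindlin complex at the spindle midzone, had 94.2, 44.2 and 55.7 CPM in Il12rb2-deleted Aldara libraries, against 170, 111, 119 and 219 CPM untreated. Floxed control libraries gave 57.6, 75.9 and 33.3 CPM after Aldara, against 90.8, 128 and 211 CPM untreated. The groups did not overlap within either genotype, and the difference over both was -1.31 (SE 0.27, edgeR adjusted p = 0.00237).

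Ect2, the exchange factor that activates RhoA at the division plane, had 42.6, 41.7 and 45.7 CPM in Il12rb2-deleted Aldara libraries, against 153, 85.9, 129 and 216 CPM untreated. The values with Il12rb2 intact were 45.1, 78.9 and 17.5 CPM in floxed control Aldara libraries, against 70.9, 82.6 and 203 CPM untreated. The groups were apart in Il12rb2-deleted cells, whereas floxed control Aldara replicate 2 exceeded untreated replicate 1. Over both genotypes Ect2 was lower by -1.55 in log2 (SE 0.34, edgeR adjusted p = 0.00352). Kif20a, a kinesin that brings the chromosomal passenger complex to the midzone, had 106, 68.7 and 93.2 CPM in Il12rb2-deleted Aldara libraries, against 196, 130, 129 and 162 CPM untreated, and at 67.9, 86.8 and 65.8 CPM in floxed control Aldara libraries, against 111, 115 and 233 CPM untreated. Its groups did not overlap in either genotype, and the difference over both was -0.92 (SE 0.2, edgeR adjusted p = 0.00369). Exons of the opposite-strand gene Cdc23 cover 29.3% of the exonic bases of Kif20a, and the library kit does not mark strand, so its counts are uncertain to that extent.

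All 6 of 6 spindle genes were lower over both genotypes, with a median of -1.13. Prc1, which bundles antiparallel microtubules of the midzone and whose promoter is printed above, had 62.6, 40.8 and 56.9 CPM in Il12rb2-deleted Aldara libraries, against 172, 107, 142 and 248 CPM untreated. Levels in floxed control cells were 61.2, 55.7 and 33 CPM after Aldara, against 107, 97.9 and 223 CPM untreated. The highest Aldara value, 62.6 CPM, was below the lowest untreated value, 97.9 CPM. The log2 fold change was -1.65 in Il12rb2-deleted cells (SE 0.35, edgeR adjusted p = 0.00602) and -1.52 in floxed control cells (SE 0.37, adjusted p = 0.0232). Exons of the opposite-strand gene Rccd1 cover 11.1% of the exonic bases of Prc1. Tpx2, which activates Aurora A on spindle microtubules, had 42.1, 48 and 62.8 CPM in Il12rb2-deleted Aldara libraries, against 133, 96.2, 116 and 132 CPM untreated. Floxed control Aldara libraries held 60.3, 58.2 and 35.7 CPM, against 78, 61.8 and 175 CPM in floxed control untreated ones. The groups were apart in both genotypes, though by little in floxed control cells, where the untreated replicate 2 value lay just above the Aldara values. Over both, Tpx2 was lower by -1.13 in log2 (SE 0.24, edgeR adjusted p = 0.00274).

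The other 4 spindle genes were also called over both genotypes. Nusap1, a microtubule-binding protein that tethers spindle fibres to chromosomes, had 44.2, 29.6 and 27.8 CPM in Il12rb2-deleted Aldara libraries, against 97.2, 40.2, 56.1 and 106 CPM untreated. Floxed control cells showed 20.4, 36.8 and 13.3 CPM after Aldara, against 48.7, 45.8 and 123 CPM untreated. The groups overlapped in Il12rb2-deleted cells and were apart in floxed control cells, and the difference over both was -1.39 (SE 0.32, edgeR adjusted p = 0.00522). Hmmr, a spindle-associated hyaluronan-binding protein, had 47.9, 39 and 45.6 CPM in Il12rb2-deleted Aldara libraries, against 101, 52.9, 83.3 and 125 CPM untreated. Floxed control cells showed 45.7, 46.3 and 51.9 CPM after Aldara, against 54.7, 54.8 and 115 CPM untreated. Its groups did not overlap in either genotype, and the difference over both was -0.84 (SE 0.22, edgeR adjusted p = 0.0124).

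Kif2c, a kinesin that shortens microtubules at kinetochores, had 41.8, 19.6 and 36.7 CPM in Il12rb2-deleted Aldara libraries, against 66.8, 67.3, 65 and 102 CPM untreated. Floxed control cells showed 27.8, 47.7 and 12.8 CPM after Aldara, against 41.4, 33.4 and 108 CPM untreated. The groups were apart in Il12rb2-deleted cells and overlapped in floxed control cells, and the difference over both was -1.13 (SE 0.33, edgeR adjusted p = 0.0207). Kif11, the kinesin that pushes spindle poles apart, had 59.5, 45.7 and 64.2 CPM in Il12rb2-deleted Aldara libraries, against 95.5, 64.6, 101 and 161 CPM untreated. Floxed control cells showed 44.9, 58 and 29 CPM after Aldara, against 57.2, 56.7 and 107 CPM untreated. Its groups were likewise apart in Il12rb2-deleted cells, narrowly, and overlapped in floxed control cells, and the difference over both was -0.83 (SE 0.24, edgeR adjusted p = 0.0208). Both calls were lost in the omissions given above.

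Among the 6 entry regulators 2 were lower over both genotypes, Cdc25c and Ccnb1, while their kinase Cdk1 was not. Cdc25c, the phosphatase that removes inhibitory phosphate from Cdk1, had 11.3, 11.5 and 16.6 CPM in Il12rb2-deleted Aldara libraries, against 44.1, 36.6, 44.5 and 46.1 CPM untreated. Floxed control libraries gave 14, 21.5 and 20.9 CPM after Aldara, against 29.6, 33.9 and 70.2 CPM untreated. No Aldara library reached any untreated library. The log2 fold change was -1.71 in Il12rb2-deleted cells (SE 0.33, edgeR adjusted p = 0.00317) and -1.25 in floxed control cells (SE 0.34, adjusted p = 0.0383). Exons of an opposite-strand predicted gene, Gm3550, cover 12.7% of its exonic bases. Ccnb1, cyclin B1, had 67.2, 104 and 104 CPM in Il12rb2-deleted Aldara libraries, against 247, 135, 160 and 254 CPM untreated. The values with Il12rb2 intact were 115, 163 and 80.8 CPM in floxed control Aldara libraries, against 167, 112 and 319 CPM untreated. The groups were apart in Il12rb2-deleted cells and overlapped in floxed control cells, and the difference over both was -0.93 (SE 0.26, edgeR adjusted p = 0.0157). Of the windows of 100 bases in its exons, 14.9% also occur in pseudogenes such as Ccnb1-ps, so part of its counts may be shared with them.

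Cdk1 had 97.7, 62 and 76.7 CPM in Il12rb2-deleted Aldara libraries, against 65.8, 46.7, 51.3 and 108 CPM untreated. Levels in floxed control cells were 80.8, 88 and 62.8 CPM after Aldara, against 55.5, 41.4 and 62 CPM untreated. All floxed control Aldara values lay above all floxed control untreated values, narrowly, and the Il12rb2-deleted values overlapped. Its log2 fold change over both was 0.38 (SE 0.21, edgeR adjusted p = 0.222), and it passed the test, as higher, under 3 of the 20 other settings run: with a replicate block, without the 3 libraries under 0.01% in Gm10800, and without Il12rb2-deleted untreated replicate 4. The other entry regulators did not pass over both genotypes: cyclin A2 (Ccna2) stood at -0.49 (SE 0.23), cyclin B2 (Ccnb2) at -0.62 (SE 0.24), and the transcription factor Foxm1 at -0.48 (SE 0.3), with adjusted p of 0.145, 0.0763 and 0.27 by edgeR. Exons of the opposite-strand gene Exosc9 cover 12.5% of the exonic bases of Ccna2.

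Of the 6 mitotic kinases and kinase-like checkpoint genes, Aurka alone was lower over both genotypes. Aurka encodes Aurora A, the kinase of centrosomes and spindle poles that Tpx2 activates. It had 16.2, 16.6 and 20.9 CPM in Il12rb2-deleted Aldara libraries, against 55.3, 34.5, 51.6 and 73.4 CPM untreated. Floxed control Aldara libraries held 32.3, 47.3 and 25.1 CPM, against 48.3, 37.1 and 78.6 CPM in floxed control untreated ones. The groups were apart in Il12rb2-deleted cells and overlapped in floxed control cells. The log2 fold change was -1.59 in Il12rb2-deleted cells (SE 0.33, edgeR adjusted p = 0.00487) and -0.65 in floxed control cells (SE 0.34, adjusted p = 0.292), and the difference between these effects, -0.94 (SE 0.46), had an unadjusted p of 0.0617 and an adjusted p of 1. Plk1, the polo-like kinase that acts from entry to exit, stood at -0.47 over both (SE 0.24, edgeR adjusted p = 0.175). Aurkb, the kinase of the chromosomal passenger complex, stood at -0.23 (SE 0.22, adjusted p = 0.495). The spindle checkpoint genes Bub1, Bub1b and Ttk stood at 0.1, -0.65 and -0.84, with adjusted p of 0.824, 0.0636 and 0.0566.

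Of the 4 checkpoint and exit genes, Cdc20 was lower over both genotypes. Cdc20 activates the anaphase-promoting complex (APC/C), and Mad2l1 holds it back until chromosomes are attached. Cdc20 had 253, 140 and 198 CPM in Il12rb2-deleted Aldara libraries, against 456, 293, 314 and 535 CPM untreated. Floxed control libraries gave 170, 217 and 118 CPM after Aldara, against 274, 235 and 685 CPM untreated. The groups did not overlap within either genotype. The difference was -1.02 in Il12rb2-deleted cells (SE 0.37, edgeR adjusted p = 0.0757) and -1.24 in floxed control cells (SE 0.39, adjusted p = 0.0698), so it passed only over both genotypes, at -1.13 (SE 0.27, adjusted p = 0.00628). Mad2l1 had 56.6, 61.4 and 68.9 CPM in Il12rb2-deleted Aldara libraries, against 49.8, 45.2, 53.3 and 83.4 CPM untreated. The values with Il12rb2 intact were 51.8, 69.2 and 52.4 CPM in floxed control Aldara libraries, against 30.9, 53.1 and 86.9 CPM untreated. These groups overlapped in both genotypes, and the value over both was 0.06 (SE 0.23, edgeR adjusted p = 0.879). Ube2c, which passes ubiquitin to APC/C substrates, stood at -0.37 (SE 0.28), and Pttg1, the securin that guards sister cohesion, at 0.04 (SE 0.21), with adjusted p of 0.385 and 0.921. Exons of Tnnc2 on the opposite strand cover 22.8% of the exonic bases of Ube2c.

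Among the 6 centromere and kinetochore genes, 2 were called lower over both genotypes, Cenpf and Ndc80. Cenpf, a large kinetochore protein that accumulates in G2, had 65.6, 60 and 62.7 CPM in Il12rb2-deleted Aldara libraries, against 190, 130, 125 and 178 CPM untreated. Levels in floxed control cells were 59.6, 89.1 and 34.1 CPM after Aldara, against 93.5, 121 and 208 CPM untreated. No Aldara library reached any untreated library. The difference was -1.31 in Il12rb2-deleted cells (SE 0.33, edgeR adjusted p = 0.0135) and -1.21 in floxed control cells (SE 0.34, adjusted p = 0.0445). Ndc80, the microtubule-binding subunit of the outer kinetochore, had 8.08, 12.6 and 10.9 CPM in Il12rb2-deleted Aldara libraries, against 30, 20.4, 55.8 and 45.2 CPM untreated. Floxed control Aldara libraries held 13.3, 8.83 and 17.5 CPM, against 21.8, 18.1 and 48 CPM in floxed control untreated ones. The groups were apart in both genotypes, narrowly in floxed control cells, and the difference over both was -1.5 (SE 0.31, edgeR adjusted p = 0.0025). Its partner Nuf2 spread widely, from 1.23 to 27.1 CPM in Il12rb2-deleted Aldara libraries and from 20.4 to 49.5 CPM untreated, and did not pass (-0.9, SE 0.49, adjusted p = 0.206). Survivin (Birc5), the centromeric histone Cenpa and the kinetochore kinesin Cenpe stood at -0.47, -0.65 and -0.56, with adjusted p of 0.196, 0.0673 and 0.0655.

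The chromosome proteins Mki67 and Top2a, which are widely used to mark cycling cells, did not pass in any comparison. Mki67, the Ki-67 protein that coats mitotic chromosomes, had 172, 155 and 156 CPM in Il12rb2-deleted Aldara libraries, against 246, 182, 132 and 246 CPM untreated. Floxed control libraries gave 192, 173 and 180 CPM after Aldara, against 160, 148 and 177 CPM untreated. The groups overlapped in both genotypes. The value over both was -0.08 (SE 0.16, edgeR adjusted p = 0.771). Top2a, the topoisomerase that untangles sister chromatids, had 206, 196 and 245 CPM in Il12rb2-deleted Aldara libraries, against 283, 233, 214 and 315 CPM untreated. The values with Il12rb2 intact were 246, 206 and 183 CPM in floxed control Aldara libraries, against 200, 229 and 311 CPM untreated. These groups overlapped as well, and the value over both was -0.25 (SE 0.16, adjusted p = 0.28). A value that did not pass does not show that a level was the same.

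**Figure D3:**
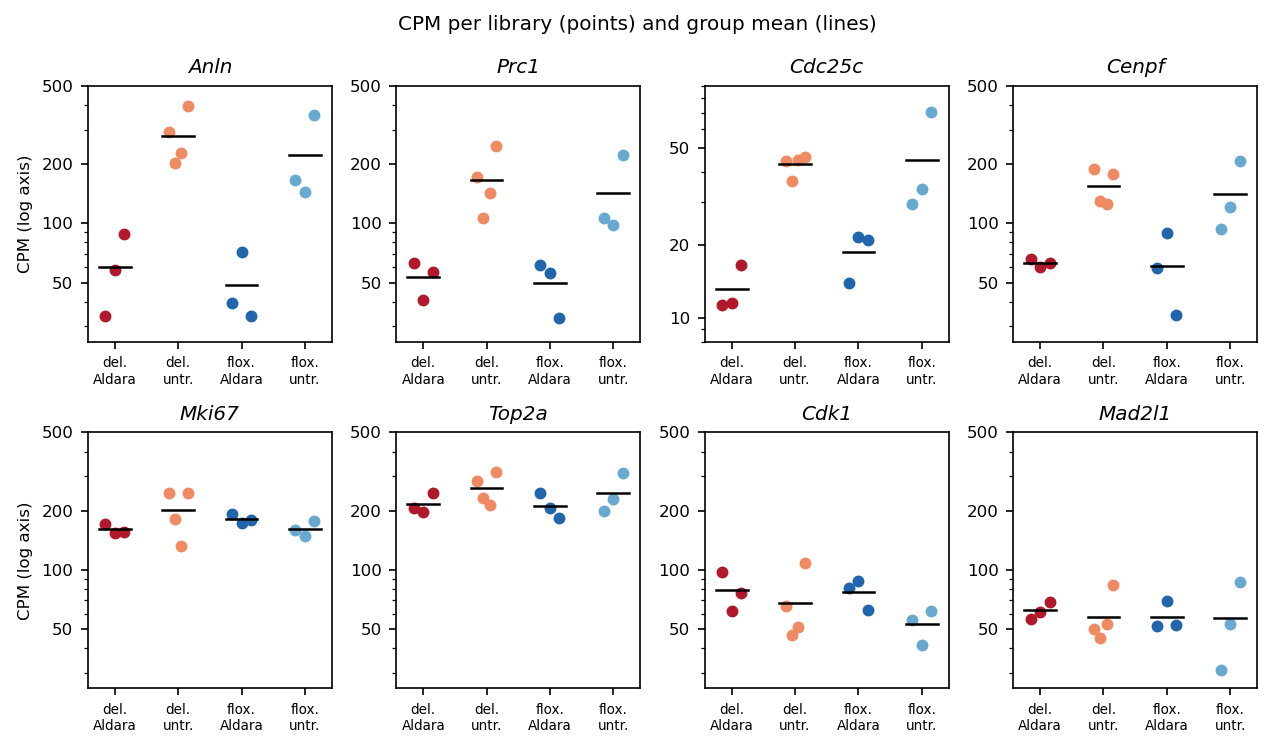
CPM per library on a log axis, with group means as lines, for 4 genes called lower in both genotypes (Anln, Prc1, Cdc25c, Cenpf) and 4 not called (Mki67, Top2a, Cdk1, Mad2l1); del. is Il12rb2-deleted, flox. is floxed control and untr. is untreated. In the upper row every Aldara point lies below every untreated point, and in the lower row the points of treated and untreated libraries share 1 range, apart from Cdk1 in floxed control cells. Other genes not called had lower log2 fold changes over both genotypes and are not shown, such as Ttk (-0.84), Bub1b (-0.65) and Ccnb2 (-0.62).

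Per exonic length, the member with the highest level in Il12rb2-deleted Aldara libraries was Cdc20, at 105 ± 30.2 RPKM (CPM per kilobase of exon) in Il12rb2-deleted Aldara libraries (SD, n = 3) and 214 ± 62 RPKM in Il12rb2-deleted untreated libraries (SD, n = 4). Ccnb2 followed, at 54.2 ± 8.45 RPKM in the Aldara libraries and 96.2 ± 25.2 RPKM in the untreated ones. At the other end Ndc80 stood at 1.62 ± 0.352 RPKM after Aldara and 5.83 ± 2.42 RPKM untreated. In these Il12rb2-deleted groups the SDs of all 3 genes were smaller than their differences. In floxed control cells (n = 3 per group) the untreated SD exceeded the difference for all 3. Cdc20 stood there at 90.1 ± 26.5 RPKM after Aldara and 213 ± 133 RPKM untreated. Ccnb2 stood at 68.8 ± 11 and 92.1 ± 58.3 RPKM, and Ndc80 at 2.03 ± 0.668 and 4.51 ± 2.51 RPKM.

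Ratios of counts between members of the same library need no scaling between libraries; the pairs were chosen after their values were seen and carry no test. Anln stood to Mki67 at 0.196, 0.376 and 0.567 in Il12rb2-deleted Aldara libraries, against 1.19, 1.11, 1.73 and 1.6 in Il12rb2-deleted untreated ones, and at 0.206, 0.416 and 0.188 in floxed control Aldara libraries, against 1.04, 0.982 and 2.02 in floxed control untreated ones. All Aldara ratios were thus below all untreated ones. Prc1 stood to Cdk1 at no more than 0.757 in the 6 Aldara libraries and no less than 1.93 in the 7 untreated ones. Ccnb1 stood to Cdk1 at 0.688 to 1.85 over the Aldara libraries and 2.35 to 5.15 over the untreated ones. Cdc20 stood to Mad2l1 at 2.25 to 4.46 over the Aldara libraries and 4.43 to 9.15 over the untreated ones, ranges that touch.

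**Figure D4:**
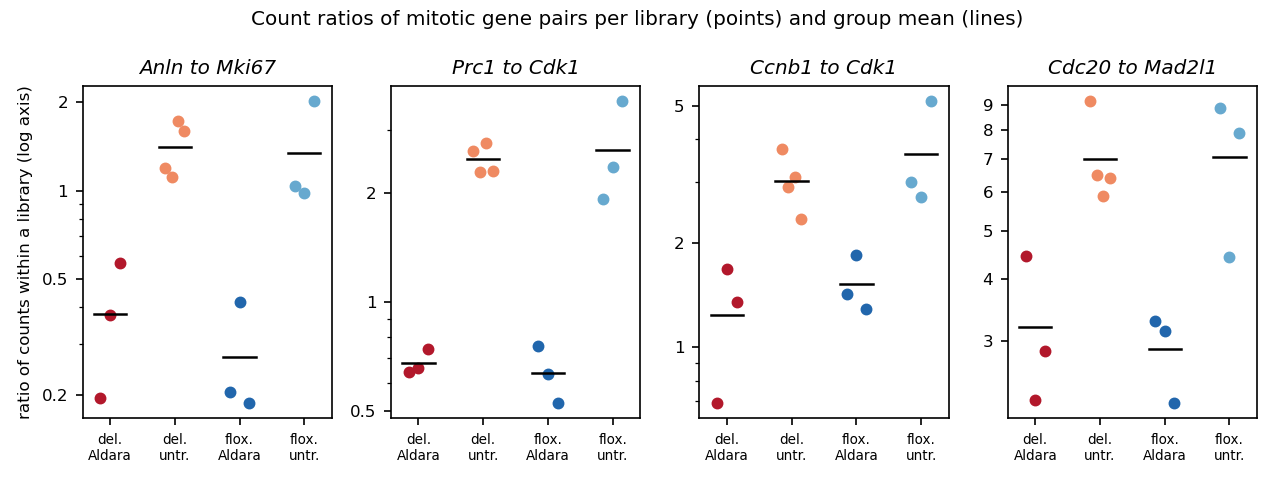
Ratio of counts of 2 mitotic genes within each library on a log axis, with group means as lines, by group; del. is Il12rb2-deleted, flox. is floxed control and untr. is untreated. Aldara points lie below untreated points in the Anln to Mki67, Prc1 to Cdk1 and Ccnb1 to Cdk1 panels, while in the Cdc20 to Mad2l1 panel an Aldara value of 4.46 lies beside an untreated value of 4.43.

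No mitotic gene passed the test between Il12rb2-deleted and floxed control cells. In untreated cells 0 of 34 were called (0% of all genes), with 0 at an unadjusted p under 0.05 by edgeR (3.73% of all genes) and 0 called by DESeq2 or limma voom. Log2 differences, Il12rb2-deleted over floxed control, ran from -0.32 for Pttg1 to 0.69 for Bub1 around a median of 0.1, and the groups overlapped for every member, where 3.26% of all genes did not overlap with Il12rb2-deleted lower and 2.77% with it higher. With floxed control untreated replicate 3 left out the median was 0.61, against -0.098 over all genes, with 0 called and 9 of 34 at an unadjusted p under 0.05. After Aldara 0 of 34 were called (0% of all genes), with 1 at an unadjusted p under 0.05 (4.3% of all genes), Aurka, and 0 called by DESeq2 or limma voom. Aurka stood at 16.2, 16.6 and 20.9 CPM in Il12rb2-deleted Aldara libraries, against 32.3, 47.3 and 25.1 CPM in floxed control Aldara libraries, a difference of -0.96 (SE 0.34, edgeR adjusted p = 0.982). Its groups did not overlap, nor did those of Mki67, which is 2 of 34, lower in Il12rb2-deleted cells, against 4.72% of all genes, and 0 were higher without overlap, against 4.37%. The median after Aldara was 0.07. The difference between the 2 Aldara effects was called in 0 of 34 (0% of all genes), with 0 at an unadjusted p under 0.05 (3.36% of all genes) and 0 by DESeq2 or limma voom, and its median was -0.14. That median moved with single libraries, to -0.54 without floxed control untreated replicate 3, where 3 of 34 reached an unadjusted p under 0.05, and to 0.1 without floxed control Aldara replicate 2. Standard errors of that difference ran from 0.31 for Top2a to 0.96 for Nuf2 in log2, and a value that missed the threshold does not show that the genotypes responded alike.

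Other cell cycle genes did not move as one with these members. Over both genotypes, 36 of 49 S phase genes were higher after Aldara and 0 lower, with a median of 0.97, where 13% of all genes were called higher. Rrm2, a subunit of ribonucleotide reductase, had 263, 152 and 221 CPM in Il12rb2-deleted Aldara libraries, against 35.7, 30.1, 81.6 and 103 CPM untreated. Levels in floxed control cells were 245, 201 and 266 CPM after Aldara, against 37.1, 40.2 and 49.6 CPM untreated. Its groups did not overlap, and the difference was 2.12 (SE 0.27, edgeR adjusted p = 8.46e-05). Mcm7, of the replicative helicase, was higher by 1.16 (SE 0.16, adjusted p = 0.000153), and Rpa2, of the single-strand binding complex, by 1.54 (SE 0.21, adjusted p = 0.000132). The S phase count lay between 23 and 43 over 20 other settings, with 23 without the 3 libraries over 5% in Gm10800 and 43 without the 3 under 0.01%.

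A further 60 mitotic genes outside the 34 gave 17 lower and 3 higher, with a median of -0.54, where 11.9% of all genes were called lower and 13% higher. Lower ones included Ckap5, a microtubule polymerase (-0.94, SE 0.15, edgeR adjusted p = 0.000443), Aspm, of the spindle poles (-1.4, SE 0.26, adjusted p = 0.00102), and Dlgap5, of kinetochore fibres (-1.81, SE 0.34, adjusted p = 0.00123). Without the 3 libraries under 0.01% in Gm10800 the count was 6 lower and 8 higher. Of 19 tested genes of a list that joins G1 kinase inhibitors and p53-related genes with brakes of the G2 to M step, 9 were lower and 0 higher, among them Gadd45b (-1.91, SE 0.24, adjusted p = 7.46e-05), Gadd45a (-1.6, SE 0.27, adjusted p = 0.000686) and the 14-3-3 protein Sfn (-1.43, SE 0.23, adjusted p = 0.000463), and the count ran from 5 to 10 over 20 other settings. Of 19 MuvB, E2F and pocket protein genes 5 were higher and 1 lower. Mybl2, which encodes B-Myb, had 38.2, 15.8 and 23.7 CPM in Il12rb2-deleted Aldara libraries, against 1.03, 4.16, 8.4 and 9.67 CPM untreated. Floxed control Aldara libraries held 17.6, 17.4 and 26 CPM, against 2.95, 6.72 and 6.49 CPM in floxed control untreated ones. Its groups were apart in both genotypes (2.03, SE 0.44, adjusted p = 0.00325), while Foxm1 did not pass. Read against the same shares of all genes, condensin and cohesin gave 3 lower of 18, and G1 cyclins and kinases 3 higher and 1 lower of 8. A list of APC/C subunits and a coactivator gave 1 lower of 17, the coactivator Fzr1 (-0.64, SE 0.19, edgeR adjusted p = 0.0207).

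**Figure D5:**
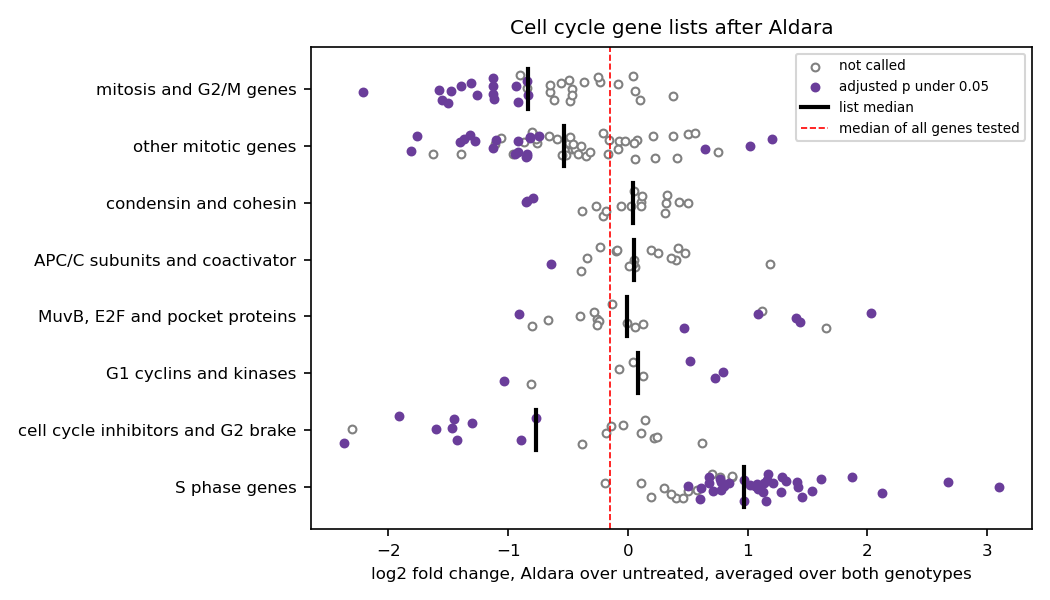
Each point is a gene, placed by its log2 fold change, Aldara over untreated, averaged over both genotypes; filled points passed an adjusted p of 0.05, black bars are list medians and the dashed line is the median of all genes tested. The 34 mitosis and G2/M genes centre on -0.83 and the S phase genes on 0.97, on opposite sides of the median of all genes at -0.15.

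Some markers of keratinocytes and of other skin cells also moved with Aldara. Counts of markers below are over both genotypes unless stated, where 11.9% of all genes tested were called lower, 13% higher and 24.9% in either direction. The 12 keratinocyte identity genes summed to 13100 to 22000 CPM in Il12rb2-deleted Aldara libraries, against 45100 to 71800 CPM untreated, and to 13100 to 21000 CPM in floxed control Aldara libraries, against 27500 to 49300 CPM untreated; 9 of 12 were called lower and none of the 12 was at 0 throughout a group. Basal Krt14 remained high, at 6420 to 12600 CPM over the Aldara libraries and 11500 to 32600 CPM over the untreated ones. Of 10 fibroblast markers 8 were lower, with sums of 122 to 296 CPM in Il12rb2-deleted Aldara libraries, against 1080 to 2580 CPM untreated, and 175 to 462 CPM in floxed control Aldara libraries, against 1130 to 1340 CPM untreated. Of 11 sebaceous markers 9 were higher, with sums of 5650 to 7980 CPM in Il12rb2-deleted Aldara libraries, against 1030 to 4600 CPM untreated, and 6850 to 11200 CPM in floxed control Aldara libraries, against 2210 to 5640 CPM untreated. Of 4 tested neutrophil markers 2 were higher, S100a8 and S100a9, which keratinocytes also express; the 7 markers summed to 108 to 183 CPM in Il12rb2-deleted Aldara libraries, against 4.16 to 32.1 CPM untreated, and 18.8 to 40.1 CPM in floxed control Aldara libraries, against 1.35 to 3.76 CPM untreated. In Il12rb2-deleted Aldara libraries S100a8 made up 141, 47.3 and 106 CPM of these sums, and S100a9 32.6, 21.2 and 37.8 CPM. Mmp9 had 36.5 CPM in replicate 2 and 0 in the others. Csf3r had 0.511, 0.0714 and 0 CPM there, against 0.771, 0.792, 0 and 0 CPM untreated. Ly6g had 0.102, 0 and 0 CPM, against 0, 0.198, 0 and 0 CPM untreated. Retnlg was at 0 in every Il12rb2-deleted Aldara library, but also at 0, 0.198, 0 and 0 CPM in the untreated ones. Cxcr2 had 9.31, 3 and 4.99 CPM in Il12rb2-deleted Aldara libraries, against 0.686, 1.19, 0 and 0 CPM untreated. In floxed control cells Cxcr2 overlapped, at 0.192, 2.09 and 2.24 CPM after Aldara, against 0, 1.07 and 0.0451 CPM untreated. Of 6 tested T cell markers 2 were lower, of 8 endothelial and mural markers 3 were lower, and of 9 tested Langerhans cell and macrophage markers Cd207 alone was lower over both genotypes, while H2-Aa and H2-Ab1 were higher in Il12rb2-deleted cells taken alone. Of 13 tested hair follicle markers 1 was higher and 3 were lower, and of 9 melanocyte and Merkel cell markers and 9 mitochondrial transcripts 0 passed by edgeR, with 1 and 0 at an unadjusted p under 0.05. In lists with few calls, such as those of T cell and hair follicle markers, no result is read from the counts. The part of these cells in the mitotic levels was not tested.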

How the data were processed

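RNA from sorted keratinocytes was made into Smart-seq2 libraries without strand or molecular identifiers and sequenced as single reads of 100 bases, per the labels' protocols. The authors deposited raw read counts per gene for 13 libraries. STAR, featureCounts, Subread and the GRCm38 build are named in the submitters' processing notes; no source used here gives versions or settings. From the deposited counts, CPM and log2 fold changes were computed here with edgeR 4.0.16 in R 4.3.3: TMM scaling, a minimum count of 10 in filterByExpr (16051 of 25746 genes kept), 1 fit over the 4 groups and 13 libraries, the quasi-likelihood F test, and Benjamini-Hochberg adjustment over all genes tested, called under 0.05. Standard errors are the log2 fold change over the square root of F. Log2 CPM for plots used a prior count of 2. RPKM used GENCODE exonic length on GRCm38. The fit was tested on simulated data. Alternatives were DESeq2 1.42.0, limma 3.58.1 voom, no filter, a replicate block, the compared groups only, and libraries left out; sets of libraries by Gm10800 share and the within-library ratios were chosen after seeing the data, apart from the set over 1%. All 34 mitotic genes were named by role; the rule for full values was the called genes and those with the smallest p up to 12 in a comparison, with up to 3 genes of each other list, and of the genes not called only Cdk1, Mad2l1, Mki67 and Top2a are given by library. Genes named outside this rule, such as Retnlg, were chosen after their values were seen. The members and lists were chosen with earlier results of these data known.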

Additional observations from a re-analysis of the deposited data

Results flagged for a closer look

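Of 34 mitotic genes in the 1 group with 4 libraries, 1 held a library far from the others: Kif2c was read at 102 CPM in Il12rb2-deleted untreated replicate 4, while the other libraries of that group lay between 65 and 67.3 CPM, a gap of 0.938 of the whole range. Chance gives about 1 such group in 20.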

How the results depend on the processing

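No called value changed sign under any setting run. Shares of all genes given here count calls in either direction unless a direction is named. In Il12rb2-deleted cells 11 genes were called, all lower, where 15.5% of all genes were called and 7.69% called lower. The count was 17 by DESeq2's Wald test (21.1% of all genes) and 7 with a replicate block (12%). It was 4 without the 3 libraries under 0.01% in Gm10800 (8.6%), and 5 to 14 with each library left out. In floxed control cells 7 were called, where 7.05% of all genes were, against 2 with the replicate block (5.18%), 2 with the compared groups alone (5.95%), 1 without every library over 1% in Gm10800 (0.349%), 2 without the 3 over 5% (1.7%), 0 without the 3 under 0.01% (1.78%), and 1 to 7 with each library left out. Over both genotypes 16 were called, where 24.9% of all genes were, against 8 without the 3 under 0.01% (18.2%) and 14 to 18 with each library left out; the replicate block gave 14, 13 lower and Cdk1 higher (22.3%). Whether the replicate numbers pair the libraries is not known. Correlations of deviations exceeded 0.1 in 5 of 18 same-numbered pairs (-0.16 to 0.42). They ran from -0.44 to 0.37 over 45 different-numbered pairs, and 6 of 13 libraries correlated best with their own number. Such overlapping ranges cannot decide it. Counts between genotypes were 0 in all settings run. Leaving out every library over 1% removes 7 libraries, among them all Il12rb2-deleted Aldara ones, so it gave values only for the floxed control Aldara effect and the untreated deletion effect. Called in every setting were Cdc25c, Prc1 and Anln of the 11, 0 of the 7, and Cdc25c, Cenpf, Tpx2, Prc1, Kif20a, Kif23 and Anln of the 16. Genes not called changed sign in at least 1 setting in 5, 11 and 7 cases for these effects, so no direction is read from them.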
